A study of Mus musculus with 4 samples.

Results

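Clodronate injection was compared with phosphate-buffered saline (PBS) injection in the livers of mice on a high-fat diet. The value of a probe set was its log2 level on the clodronate array minus that on the PBS array. The comparison took every probe set with exactly 1 gene symbol, which were 34958 of the 45101 probe sets on the array and covered 18194 genes. Both groups were male C57BL/6J mice, aged 8 to 12 weeks when the diet began, that ate a diet providing 45% of its energy as fat, in which palm oil stood in for lard, over a period of 20 weeks. In the last week the mice were given 2 injections into the peritoneal cavity, of clodronate liposomes in 1 group and of PBS in the other. Clodronate liposomes are fat vesicles that phagocytes engulf, and the drug they release kills the cell. Liver RNA of the 10 mice of a group was pooled in equal amounts, and each pool, with an RNA integrity number above 8.0, gave 1 array from 5 µg of RNA. With 1 array a group the spread between mice was not measured, so no difference below has a replicate check or a test. The labels name the control injection as PBS and do not say whether it held liposomes, so effects of the liposomes, of the drug and of the loss of macrophages cannot be told apart. A second pair of arrays came from mice whose diet took 10% of its energy from fat, with 8 mice in each pool and the same injections, and shares no array with the high-fat pair. The study asked what the macrophages of the liver do to fat storage in hepatocytes, and whether interleukin-1β and the nuclear receptor PPARα take part.

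Kupffer cells are the resident macrophages of the liver. They sit in the sinusoids, the capillaries of the liver, where they take up bacteria, lipoproteins and worn red blood cells and recycle the iron of haem. They make complement C1q, present antigen, and release cytokines to which hepatocytes respond with acute phase proteins. Hepatocytes supply most of the RNA of the organ, so a macrophage transcript can be lost from a whole-liver sample with little change elsewhere.

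Levels are log2 GCRMA values, on which a step of 1 is a doubling. A value under 4 counted as too dim to measure, and a difference against such a value was taken against 4 and is written as a bound, "at least". Of the 18194 genes, 8448 were at 4 or more on at least 1 of the 2 high-fat arrays and 9746 were under 4 on both. The arrays were alike in depth of detection, with 38.9% of the probe sets at 4 or more with PBS and 38.4% with clodronate. RNA integrity seen through control probe sets was also close, with the 3' minus 5' difference of Actb at 1.23 with PBS and 1.24 with clodronate, and that of Gapdh at -0.08 and -0.10. The 18 hybridisation control probe sets differed by a median of -0.08 (clodronate minus PBS, log2), from -0.42 to -0.01. The 15 polyadenylated spike-in control probe sets differed by a median of 0.15, from -0.20 to 0.38. The median difference of the measurable genes was -0.05 (log2). It was 0.0358 after each array was centred on its own median and 0.0097 after quantile normalization, so that no direction is given for a gene list within about this distance of 0.

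Of the 8448 measurable genes, 70 were 2-fold or more lower after clodronate, 0.829% of them, and 8 were 2-fold or more higher, 0.0947%. Of the lower genes 47 were measured on both arrays and 23 are bounds, and of the higher genes 7 were measured and 1 is a bound. The lower side also held the greater sizes, with 22 genes at least 4-fold and 11 at least 8-fold lower, against 2 and 0 genes on the higher side. Counted by probe set, 95 of 13889 were 2-fold or more lower, 0.684%, and 16 were higher, 0.115%. Most genes differed little, with 79.0% of the measurable genes within 1.2-fold and 62.7% below 0. At a threshold of 1.5-fold, 258 genes were lower, 3.05%, and 55 were higher, 0.651%. The width of the differences depended on the level. Genes with a mean level from 4 to 6 had differences between -0.63 and 0.38 at the 5th and 95th percentiles, and genes from 12 to 16 had differences between -0.12 and 0.08. A difference of a dim gene is therefore less certain than the same difference of a bright one.

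**Figure D1:**
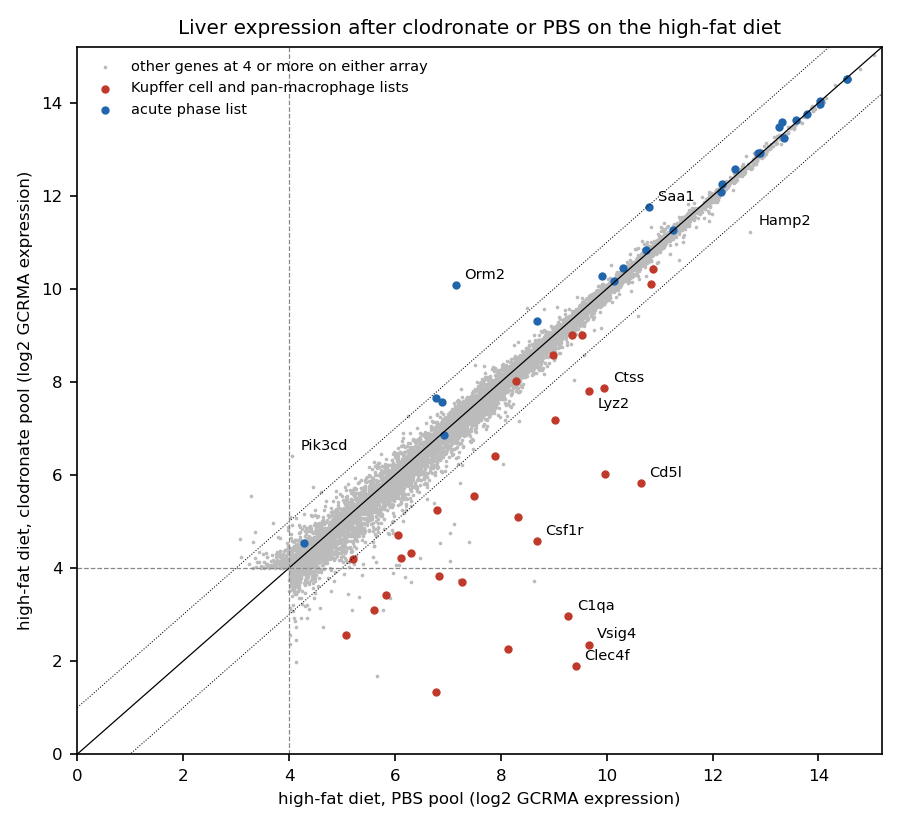
Levels of the 8448 measurable genes in the PBS pool (horizontal axis, log2) and the clodronate pool (vertical axis, log2) on the high-fat diet, 1 point a gene, with dotted lines at 2-fold and dashed lines at 4. Genes of the Kupffer cell and pan-macrophage lists (red) lie below the diagonal, and Orm2 of the acute phase list (blue) lies above the 2-fold line.

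Kupffer cell genes were far lower after clodronate. Of the 17 markers of this cell type, 9 were 2-fold or more lower, 0 were higher and 4, Timd4, Marco, Spic and Cd209f, were under 4 on both arrays. The median difference over all 17 was -1.07, with members under 4 on both arrays entered as 0, against -0.05 over all measurable genes. Vsig4, a complement receptor with which Kupffer cells capture blood-borne bacteria, had levels of 9.66 in the PBS pool and 2.35 in the clodronate pool, so that its signal was lower by at least 50.7-fold. The C-type lectin Clec4f, which among liver cells marks Kupffer cells, was at 9.42 and 1.88. Both genes went from a bright signal to one too dim to measure.

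Cd5l, a secreted protein that keeps macrophages alive, was at 10.64 with PBS and still measurable with clodronate, at 5.82. Cd163, the receptor that clears haemoglobin bound to haptoglobin, was at 6.77 and 1.34, at least 6.82-fold lower. Its PBS level leaves little room above 4, so that the bound is small. Folr2, a folate receptor, was at 5.07 and 2.56, at least 2.11-fold lower, with the same limit. Fcna, a ficolin that binds microbial sugars, was at 9.03 and 7.17, 3.61-fold lower. Clec1b, the podoplanin receptor, was at 7.89 and 6.40, 2.80-fold lower.

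Hmox1 and Il18bp, the other 2 members past 2-fold, are given with the iron and interleukin-1 genes. Slc40a1, the iron exporter ferroportin, was at 10.83 and 10.10, a difference of -0.73 (log2). Id3, a transcription regulator, differed by -0.52, the phospholipid transfer protein gene Pltp by -0.45 and Nr1h3, the oxysterol receptor LXRα, by -0.27. These 4, which other liver cells also express, did not reach 2-fold.

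The windows of 250 bases before the gene start are shown for 2 of these genes, because both were among the genes with the greatest differences and both hold a match to GAGGAA, the core to which the myeloid factor PU.1 binds. Sequences are from RefSeq on build GRCm38.p6, written 5' to 3' along the gene, with capitals on the match or its reverse complement TTCCTC.
Vsig4 (chrX:96293439-96293688, minus strand): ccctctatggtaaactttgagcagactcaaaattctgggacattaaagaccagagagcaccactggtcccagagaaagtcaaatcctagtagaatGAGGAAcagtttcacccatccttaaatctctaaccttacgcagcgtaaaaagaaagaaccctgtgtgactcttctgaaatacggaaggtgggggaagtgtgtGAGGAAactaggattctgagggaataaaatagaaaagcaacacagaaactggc
Cd5l (chr3:87357631-87357880, plus strand): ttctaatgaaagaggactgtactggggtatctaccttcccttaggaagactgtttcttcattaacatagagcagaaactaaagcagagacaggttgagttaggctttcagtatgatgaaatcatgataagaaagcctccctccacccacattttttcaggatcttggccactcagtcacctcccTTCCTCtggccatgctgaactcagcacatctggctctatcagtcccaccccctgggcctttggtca
Counted from the gene start, the matches begin at positions -155 and -53 in Vsig4 and at -66 in Cd5l. Both strands of all windows were searched. Of the 70 lower genes 56 had a promoter in the table, and 19 of these, 33.9%, held GAGGAA, against 25.9% of all 27025 genes and 23.3% of all 32851 windows. The share is near that of all genes. A match of these letters is a description of the window and not a binding site.

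Genes shared by all macrophages were lower too. Of 18 pan-macrophage markers on the array 15 were 2-fold or more lower, 0 were higher and 1, Cd14, was under 4 on both arrays, and the median difference was -1.92. The mean level over the 18 markers was 7.58 with PBS and 4.98 with clodronate. Csf1r, whose product receives the growth factor signal on which Kupffer cells depend, was at 8.69 and 4.59, 17.2-fold lower. The adhesion receptor F4/80, the product of Adgre1 that is used to stain mouse macrophages, was at 7.27 and 3.70, at least 9.64-fold lower. Tyrobp, an adaptor that carries signals from activating receptors, was at 8.32 and 5.10, 9.31-fold lower.

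Within this list the size differed widely. Aif1, the actin-binding protein IBA1, was at 5.82 and 3.43, at least 3.54-fold lower. Lyz2, the lysozyme of myeloid cells, was at 9.67 and 7.80 and therefore still bright with clodronate. Mpeg1, which forms pores in engulfed microbes, was at 8.99 and 8.59, a difference of -0.40, and Mrc1, the mannose receptor, which sinusoidal endothelial cells also make, was at 9.35 and 9.02, a difference of -0.33. Mpeg1 and Mrc1 were the only measured members of the list short of 2-fold. In a whole organ, fewer cells of a type and less RNA per cell cannot be told apart.

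**Figure D2:**
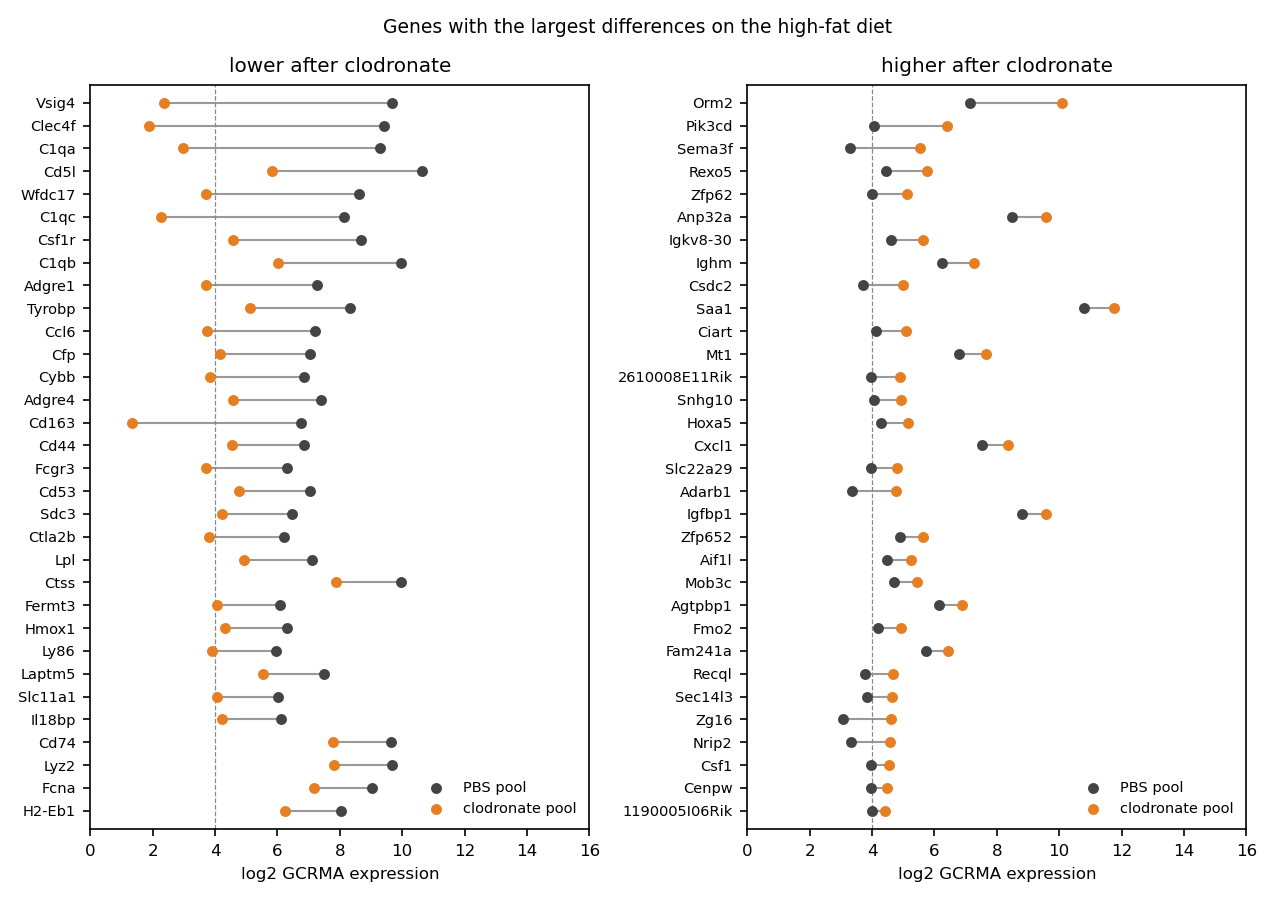
Levels (log2) with PBS (dark) and with clodronate (orange) on the high-fat diet, for the 20 measured genes and the 12 bounds with the greatest difference in each direction, with the dashed line at 4. On the lower side 22 genes differ by at least 4-fold, and on the higher side Orm2 and Pik3cd do.

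Outside the Kupffer cell and pan-macrophage lists 46 genes were 2-fold or more lower. Some belong to receptors and machinery of phagocytes. Wfdc17, a small protein with a whey acidic protein domain, was at 8.62 and 3.72, at least 24.6-fold lower. The chemokine gene Ccl6 was at 7.20 and 3.75, at least 9.20-fold lower, although its dimmer second probe set, at 4.59 and 2.57, allows a bound of only -0.59 (log2). Cd44, the hyaluronan receptor, was 4.92-fold lower, Cd53, a tetraspanin of leukocytes, 4.85-fold and Sdc3, a heparan sulfate proteoglycan of the cell surface, 4.80-fold. Fermt3, the integrin activator kindlin-3 of blood cells, was at 6.07 and 4.07, 3.99-fold lower. Of the 70 lower genes 28 were in none of the 49 gene lists, among them Wfdc17, Cd44, Cd53, Sdc3 and Fermt3.

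Among 20 phagocytic and Fc receptors 5 were 2-fold or more lower, 0 were higher and 5 were under 4 on both arrays. Fcgr3, a low-affinity receptor for immunoglobulin G, was at 6.29 and 3.70, at least 4.91-fold lower, and Fcer1g, the signalling chain it needs, was at 6.79 and 5.24, 2.93-fold lower. Axl, a receptor for apoptotic cells, was at 5.91 and 3.37, while its relative Mertk was at 8.11 and 7.27, a difference of -0.83. Fcgr2b, the inhibitory Fc receptor that sinusoidal endothelial cells carry in quantity, was at 9.90 and 9.95. The receptors thus ranged from a loss of signal to values near 0.

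Of 26 leukocyte signalling genes 13 were under 4 on both arrays, among them Syk, Btk and Vav1. Tyrobp, Cybb and Cyba were the 3 members 2-fold or more lower. Cybb and Cyba encode the membrane subunits of the phagocyte NADPH oxidase. Cybb was at 6.84 and 3.82, at least 7.16-fold lower, and Cyba was at 6.75 and 5.40, 2.54-fold lower. Ptprc, the leukocyte antigen CD45, was at 6.38 and 5.74, a difference of -0.64. The single member 2-fold or more higher was Pik3cd, described with the higher genes.

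All 4 measurable genes of the 9 in the MHC class II list, the proteins that present engulfed antigen, were 2-fold or more lower, and the other 5, with the regulator Ciita, were under 4 on both arrays. The invariant chain Cd74 was at 9.64 and 7.77, 3.66-fold lower. H2-Eb1 was at 8.04 and 6.24 and H2-Ab1 at 7.23 and 5.84. H2-Aa was at 9.38 and 8.03, a difference of -1.34, and its other measured probe sets differed by -1.43 and -1.74. All 4 genes stayed well above 4 with clodronate. In contrast, the 16 genes of MHC class I and peptide loading, which nearly every cell expresses, held 0 members past 2-fold and ranged from -0.39 for Tap2 to 0.20 for Tapbpl.

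The windows before the alpha and beta chain genes H2-Aa and H2-Eb1 are shown because these genes were lower together and both hold the Y box CTGATTGG of class II promoters, in capitals.
H2-Aa (chr17:34287824-34288073, minus strand): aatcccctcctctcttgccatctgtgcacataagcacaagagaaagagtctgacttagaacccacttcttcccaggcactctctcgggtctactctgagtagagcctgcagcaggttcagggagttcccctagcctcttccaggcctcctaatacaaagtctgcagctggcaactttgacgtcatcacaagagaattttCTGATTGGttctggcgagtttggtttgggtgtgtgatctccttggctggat
H2-Eb1 (chr17:34305617-34305866, plus strand): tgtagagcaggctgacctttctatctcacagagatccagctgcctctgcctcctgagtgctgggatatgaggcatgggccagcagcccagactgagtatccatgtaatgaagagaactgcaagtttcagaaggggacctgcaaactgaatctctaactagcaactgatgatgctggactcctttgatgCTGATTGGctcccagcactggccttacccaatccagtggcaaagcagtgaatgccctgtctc
The match begins at -51 in H2-Aa and at -62 in H2-Eb1. Of the 7 class II genes that had a promoter entry, 3 held the motif on either strand, 42.9%, against 4.43% of all genes.

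Of 23 complement genes 4 were 2-fold or more lower and 0 were higher. The 3 chains of C1q, which macrophages make, were all lower, C1qa from 9.28 to 2.96, C1qb from 9.96 to 6.02 and C1qc from 8.13 to 2.25. Properdin, Cfp, which stabilises the alternative pathway convertase and comes from leukocytes, was at 7.04 and 4.15, 7.39-fold lower. C1qa, C1qb and C1qc are also in the pan-macrophage list. The components that hepatocytes secrete were close to 0, with C8b at -0.19, C6 at -0.15, Mbl1 at -0.10 and Masp2 at -0.08. Over the whole list the median was -0.05, the same as over all genes.

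Of 27 lysosome genes 5 were 2-fold or more lower, 0 were higher and 2, Ctsk and Gla, were under 4 on both arrays. Ctss, cathepsin S, which trims the invariant chain, was at 9.96 and 7.87, 4.25-fold lower, and Lgmn, legumain, was at 8.34 and 7.16, 2.26-fold lower. Cd68, a glycoprotein of macrophage lysosomes, was at 5.60 and 3.11, at least 3.04-fold lower. Laptm5, a lysosomal membrane protein of blood cells, was at 7.50 and 5.54 and Slc11a1, which pumps metal ions out of phagosomes, at 6.01 and 4.06. The enzymes common to all cells were lower by less, with Ctsc at -0.48, Hexa at -0.37 and Ctsd at -0.30. Of the 27 genes 25 were below 0 in the deposited scaling, in which 62.7% of all measurable genes were. The list median was -0.12 as deposited, -0.03 with each array centred and -0.08 with quantile normalization, so no direction is given for the list as a whole.

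Innate sensors and cytokines were largely beyond the reach of these arrays. Of 18 genes of Toll-like receptor and lipopolysaccharide sensing 11 were under 4 on both arrays, Tlr2, Tlr4 and Cd14 among them. Ly86, the partner of the receptor CD180, was at 5.96 and 3.89, at least 3.89-fold lower, while Lbp, the hepatocyte protein that hands lipopolysaccharide to CD14, was at 9.91 and 10.27. Il1b, the gene of interleukin-1β, was at 3.48 and 2.86, so no difference could be measured, and Il1a, Il1rn, Nlrp3 and Tnf were under 4 as well. Il18bp, the secreted inhibitor of interleukin-18, was at 6.11 and 4.22, 3.71-fold lower, and was the only member of 25 interleukin-1 and NF-κB genes past 2-fold. Il1r1, the receptor on the responding cell, differed by 0.08.

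Of 24 chemokine and receptor genes 15 were under 4 on both arrays, among them Ccl2 and Ccr2. Besides Ccl6, Cxcl9, an interferon-induced chemokine, was at 8.08 and 7.19, a difference of -0.89, and Cxcl1, a neutrophil attractant, was at 7.52 and 8.36, a difference of 0.84. Interferon response genes held 0 of 23 past 2-fold and 2 past 1.5-fold lower, Cxcl9 and Gbp2, the latter at -0.72. Ifit1 and Irf7 differed by -0.52 and -0.49. The interferon list median of -0.08 is too close to 0 for a direction.

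Haem and iron genes included several that Kupffer cells use to recycle red blood cells. Of 26 members 5 were 2-fold or more lower and 0 were higher. Cd163 and Slc11a1 were described above, and Hmox1, the haem oxygenase that opens the haem ring, was at 6.30 and 4.32, 3.95-fold lower. Blvra, biliverdin reductase, the next step, was at 7.34 and 6.90, a difference of -0.44, and Slc48a1, a haem transporter, differed by -0.47. Hepcidin is the hepatocyte hormone that degrades ferroportin. Hamp, its main gene, was at 13.87 and 13.93, a difference of 0.06, while its copy Hamp2 was at 12.71 and 11.23, 2.78-fold lower. Atoh8, a transcription factor of the BMP pathway that acts on hepcidin, was at 5.26 and 4.26, a difference of -1.0 at the 2-fold limit. Lcn2, which binds bacterial iron carriers, was at 6.89 and 7.57, a difference of 0.69. Markers of macrophages were lower on the same array as all of these groups, and their part in the genes that other cells also express was not tested.

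**Figure D3:**
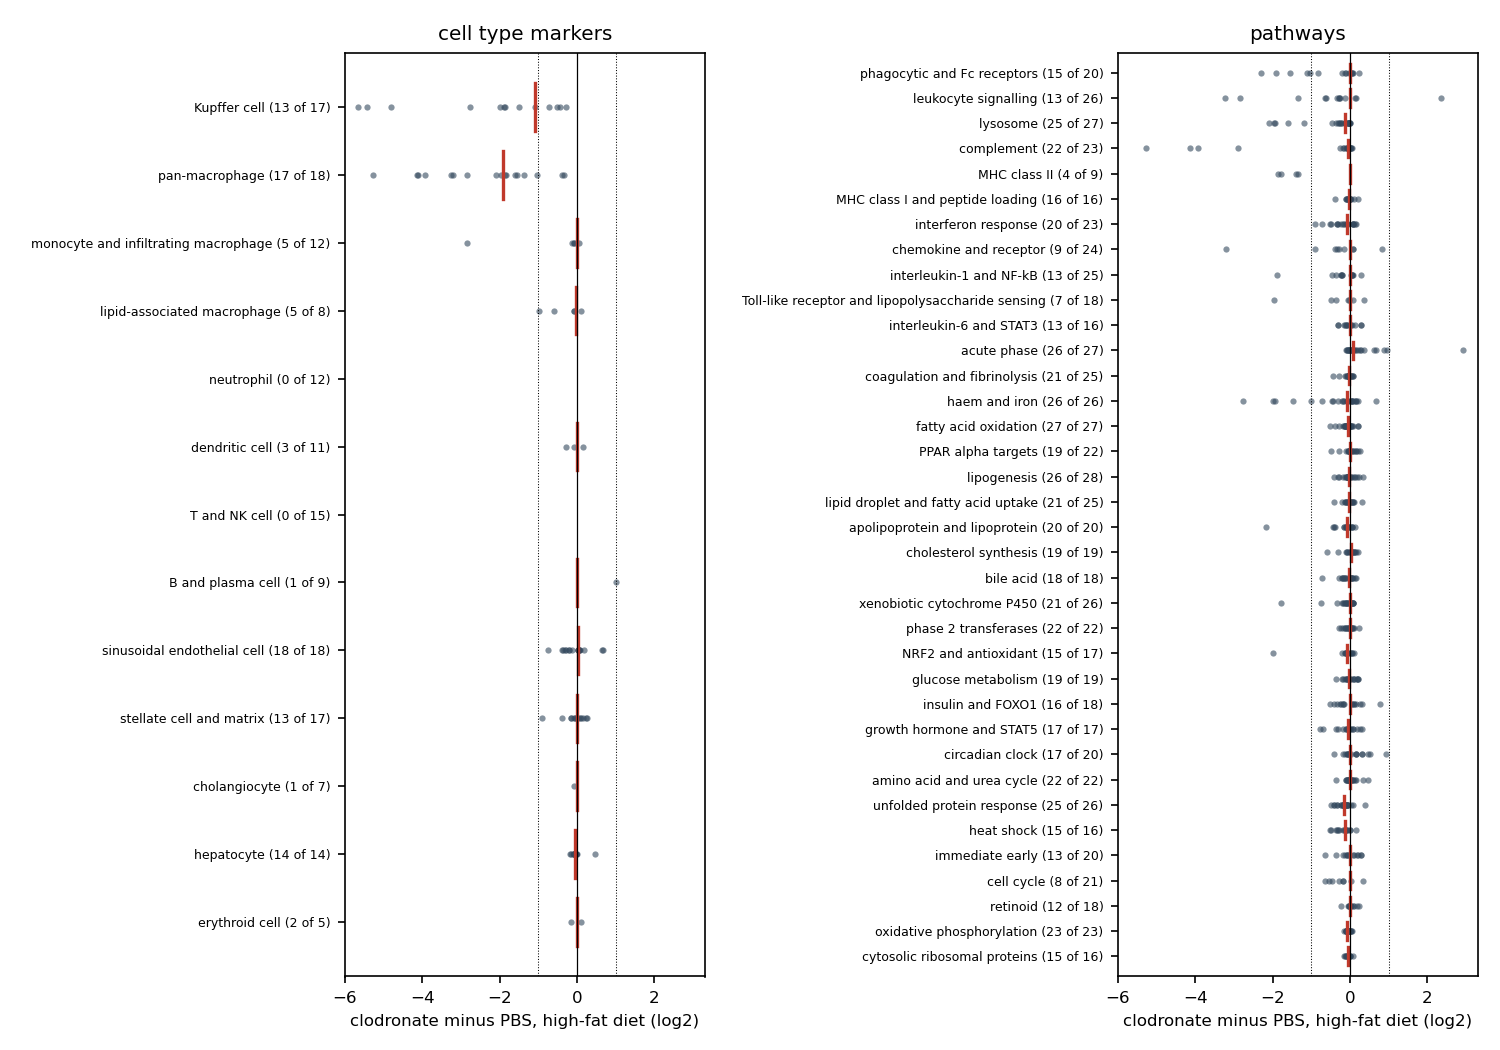
Difference of each measurable gene (clodronate minus PBS on the high-fat diet, log2) in the 13 cell type lists and the 36 pathway lists, 1 point a gene, with dotted lines at 2-fold and the number measurable of those on the array. The red bar is the list median over all genes on the array, those under 4 on both arrays entered as 0, and is left out where 0 genes were measurable. It stands at -1.07 and -1.92 for the 2 macrophage lists and near 0 for the others. For MHC class II it stands at 0 because 5 of the 9 genes were entered as 0, and all 4 measurable genes were 2-fold or more lower.

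Markers of other cells showed no such loss. Of 18 sinusoidal endothelial markers, all measurable, 0 were past 2-fold, and they ranged from -0.75 for Pecam1, a junction protein, to 0.67 for Bmp2, a growth factor that induces hepcidin. Bmp2 was at 7.68 and 8.35, and Lyve1, the hyaluronan receptor of sinusoidal cells, at 4.96 and 5.59, the 2 members past 1.5-fold higher. Clec4g, a lectin of the same cells, differed by 0.03 and Stab1, a scavenger receptor, by 0.04. Stellate cell and matrix markers held 0 of 17 past 2-fold, with Lum, lumican, the lowest at -0.90, Lrat, which stores retinol as esters, at 0.25 and 4, Des, Col1a1, Timp1 and Ngfr, under 4 on both arrays. The 14 hepatocyte markers lay between -0.18 for G6pc and 0.46 for Ass1, with Alb at -0.03, and their mean level was 12.3 in both pools.

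The other leukocytes could hardly be read. All 12 neutrophil markers and all 15 T and NK cell markers were under 4 on both arrays, S100a8, S100a9, Cd3e and Nkg7 among them. Of 11 dendritic cell markers 3 were measurable, Irf8 at -0.28, Zbtb46 at 0.15 and Bst2 at -0.08, and defining genes such as Flt3 and Xcr1 were under 4. Of 12 markers of monocytes and infiltrating macrophages 7 were under 4, among them Ccr2, Cx3cr1 and Itgam, and Adgre4, an adhesion receptor that Kupffer cells also express, was at 7.40 and 4.56, 7.14-fold lower. Lipid-associated macrophage markers held 0 of 8 past 2-fold. Of these Lgals3, galectin-3, was at 6.17 and 5.18, a difference of -0.98, Clec7a, a receptor for fungal glucan, was at 4.59 and 3.14 with a bound of -0.59, and Trem2, Gpnmb and Itgax were under 4. The mean level over the neutrophil list was 2.26 and 2.40 in the PBS and clodronate pools, under the limit of measurement in both.

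Few genes were higher after clodronate, and of the acute phase genes Orm2 was the only one past 2-fold in the deposited scaling. Orm2, an orosomucoid that hepatocytes secrete in inflammation, was at 7.15 with PBS and 10.08 with clodronate, 7.63-fold higher. Saa1, serum amyloid A1, was at 10.81 and 11.76, 1.93-fold higher, and its other probe set, at 10.04 and 11.25, differed by 1.21. Saa1 passed 2-fold in other settings, at 1.04 with each array centred, 1.004 with quantile normalization and 1.08 with the median over its probe sets. Saa2 was at 8.69 and 9.31, 1.53-fold higher. Mt1, a zinc-binding metallothionein, was at 6.78 and 7.66, 1.85-fold higher, while Mt2 differed by 0.27. Orm1, at 13.31 and 13.59, and haptoglobin, Hp, at 13.26 and 13.48, were bright in both pools and differed by 0.28 and 0.22.

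Over the whole acute phase list of 27 genes 1 was 2-fold and 5 were 1.5-fold or more higher, 0 were lower by 1.5-fold, 19 were above 0 and 7 below, and Orm3 was under 4 on both arrays. Of all measurable genes 0.0947% were 2-fold and 0.651% were 1.5-fold or more higher, and 62.7% were below 0. The median was 0.07 as deposited, 0.15 with each array centred and 0.10 with quantile normalization. Genes of the interleukin-6 pathway, which drives this response, differed less, with Cebpb at 0.29, Junb at 0.29, Stat3 at 0.13 and Socs3 at -0.11, and Il6 itself was under 4 on both arrays. Orosomucoid, serum amyloid A, hepcidin, lysozyme and Cyp2b genes have close copies, and probe sets of copies may share signal.

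The windows of Orm2 and Saa1 are shown because these 2 genes had the greatest differences of the list and both hold TTGCNNAA, a form of the element bound by C/EBP factors, in capitals.
Orm2 (chr4:63362199-63362448, plus strand): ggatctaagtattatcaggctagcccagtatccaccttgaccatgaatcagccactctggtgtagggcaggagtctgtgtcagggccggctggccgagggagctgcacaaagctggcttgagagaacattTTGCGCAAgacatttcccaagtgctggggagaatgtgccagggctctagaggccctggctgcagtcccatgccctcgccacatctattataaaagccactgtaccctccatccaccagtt
Saa1 (chr7:46742981-46743230, minus strand): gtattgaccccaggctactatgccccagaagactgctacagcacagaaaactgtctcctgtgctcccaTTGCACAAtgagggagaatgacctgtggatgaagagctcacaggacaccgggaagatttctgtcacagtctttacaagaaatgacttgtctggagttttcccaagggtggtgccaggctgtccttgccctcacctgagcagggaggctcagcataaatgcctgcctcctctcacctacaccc
The match begins at -120 in Orm2, where it reads alike on both strands and was counted as 1 place, and at -182 in Saa1. In the acute phase list 15 of the 23 genes with a promoter in the table, 65.2%, held this motif on either strand, against 10.8% of all genes. Of the 8 genes 2-fold or more higher 5 had a promoter in the table, and 1 of them, 20.0%, held it.

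Pik3cd, the leukocyte catalytic subunit of phosphoinositide 3-kinase, was at 4.05 and 6.41, 5.12-fold higher, by 1 of its 6 probe sets, and the other 5 were under 4 in both pools. Sema3f, a secreted guidance cue, was at 3.29 and 5.55, at least 2.93-fold higher, and Rexo5, an RNA exonuclease, was at 4.45 and 5.75, 2.47-fold higher. Zfp62, a zinc finger gene, differed by 1.10 on 1 probe set and by -0.24 on the other. Anp32a, a nuclear phosphoprotein, was at 8.49 and 9.58, a difference of 1.09, but its 2 other probe sets differed by 0.09 and 0.25.

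The last 2 genes past 2-fold higher encode immunoglobulin chains. Ighm, the heavy chain of IgM, was at 6.25 and 7.26, 2.02-fold higher, and the other probe set measured on both arrays, at 6.06 and 7.07, gave the same difference of 1.01. Igkv8-30, a light chain variable gene, was at 4.60 and 5.64, a difference of 1.03. The other 8 of 9 B and plasma cell markers on the array, with Cd79a, Ms4a1 and Jchain, were under 4 on both arrays. Ighm was thus the only measurable marker of these cells.

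**Figure D4:**
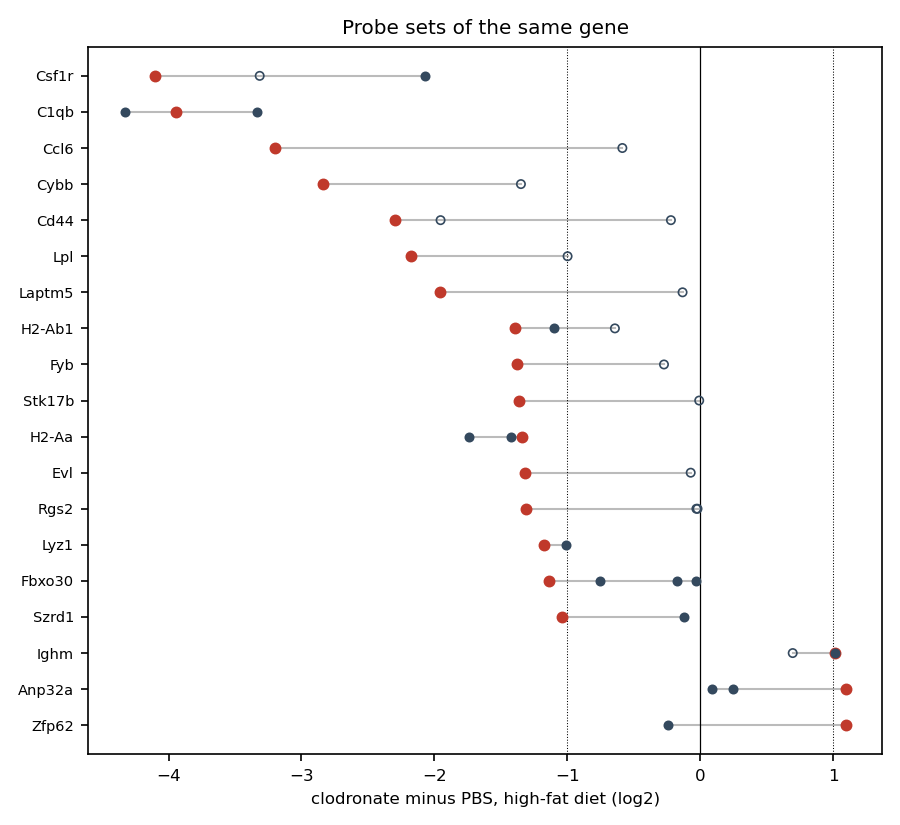
Differences (clodronate minus PBS on the high-fat diet, log2) of the single probe sets of the 19 genes past 2-fold that have several at 4 or more on either array. Red points represent the gene and are filled even where they are bounds, as for Ccl6. Among the dark points, filled ones were measured on both arrays and open ones are bounds. Every probe set of C1qb lies beyond 2-fold, while Anp32a and Zfp62 each have 1 beyond it.

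How far probe sets of 1 gene differ on these 2 arrays gives a technical spread, which says nothing about mice. Over 3226 genes with several probe sets measured on both arrays the pooled SD of the difference within a gene was 0.205 (log2), and the median SD was 0.123. Of the genes past 2-fold 10 had several such probe sets. In all 7 that were lower the probe sets shared a direction, and in 5 every one was 2-fold or more lower, as for C1qb with -4.33, -3.33 and -3.94 and Csf1r with -4.10 and -2.07. Of the 3 that were higher, 1, Ighm, had every probe set past 2-fold. Fbxo30, a ubiquitin ligase subunit, ranged from -1.14 to -0.03 over its 4 probe sets. The remaining 68 genes past 2-fold rest on 1 probe set measured on both arrays, or on none.

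Lipid metabolism, the subject of the study, showed few large differences. Lpl, lipoprotein lipase, which frees fatty acids from triglycerides of lipoproteins, was at 7.11 and 4.94, 4.52-fold lower, and its dimmer probe set, at 5.00 and 3.92, gave a bound of -1.0. Adult hepatocytes make little of this enzyme. It was the only one of 20 apolipoprotein and lipoprotein genes past 2-fold, and the next were Pltp at -0.45, Abcg1, a cholesterol exporter, at -0.41 and Apoa4 at -0.38. None of 27 fatty acid oxidation genes, 28 lipogenesis genes or 25 genes of lipid droplets and fatty acid uptake reached 1.5-fold. Of all measurable genes 3.05% were 1.5-fold or more lower and 0.651% higher, so 0 in lists of this size is near the share of all genes. The same shares stand beside the 1.5-fold counts of the lists that follow.

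Among these, Acads, the short-chain acyl-CoA dehydrogenase, was at 9.33 and 8.81, a difference of -0.52, and Crat, carnitine acetyltransferase, differed by -0.39. In lipogenesis Dgat1, which adds the last fatty acid of triglyceride, differed by -0.42 and Acacb, an acetyl-CoA carboxylase, by 0.35, while Fasn differed by -0.07 and Scd1 by -0.03. Abhd5, the activator of adipose triglyceride lipase, differed by -0.41, and Pparg by 0.31. Ppara was at 11.38 and 11.47, a difference of 0.09. Of 22 PPARα targets 0 reached 1.5-fold, with Cyp4a14 the lowest at -0.48 and the coactivator gene Ppargc1a the highest at 0.26.

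Sterol genes were similar. Of 19 cholesterol synthesis genes Mvd, mevalonate decarboxylase, was the only one past 1.5-fold, at 6.29 and 5.69, and Srebf2 differed by -0.31. Of 18 bile acid genes Cyp7a1, the rate-limiting enzyme of bile acid synthesis, was the only one past 1.5-fold, at 9.89 and 9.16, 1.66-fold lower. The receptor Fgfr4 and its partner Klb, which restrain Cyp7a1, differed by -0.27 and -0.21.

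Of 26 xenobiotic cytochrome P450 genes, 2 stood apart. Cyp2b10, a target of the receptor CAR, was at 5.77 and 3.10, at least 3.42-fold lower, and Cyp2b9 was at 6.64 and 5.90, a difference of -0.74. The receptor itself, Nr1i3, differed by -0.19 and Cyp3a11 by -0.14. Of 22 phase 2 transferases 0 were past 1.5-fold, and Hmox1 was the only one of 17 NRF2 and antioxidant genes past it. Igfbp1, which insulin represses, was at 8.81 and 9.58, 1.70-fold higher, while Irs1 and Foxo1 differed by -0.53 and -0.41 and G6pc by -0.18. None of 19 glucose metabolism genes reached 1.5-fold.

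Other regulated systems of the liver gave small differences. Cish and Socs2, feedback inhibitors that growth hormone induces through STAT5, were at 5.58 and 4.80 and at 7.74 and 7.06, the only 2 of 17 growth hormone and STAT5 genes past 1.5-fold. In the circadian clock list Ciart, a repressor, was at 4.14 and 5.08, Per3 differed by 0.51, Cry1 by 0.46 and Nr1d1 by -0.41, and 1 of 20 was past 1.5-fold. Genes of the unfolded protein response had a median of -0.14 as deposited, of -0.05 with each array centred and of -0.08 with quantile normalization. As deposited 22 of 26 were below 0, as were 62.7% of all measurable genes. Creld2, a chaperone of the endoplasmic reticulum, was at 10.46 and 9.96, Syvn1 and Sdf2l1 both differed by -0.41, and Chac1, a glutathione-degrading enzyme, by 0.38. The heat shock list had medians of -0.13, -0.04 and -0.10 in the same order, with Bag3 at -0.52, Dnajb1 at -0.49 and Hspa1b at -0.34. No direction is given for either list, and 0 members of either reached 1.5-fold.

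Ccnd1, cyclin D1, was at 8.81 and 8.16, a difference of -0.64, and was the only one of 21 cell cycle genes past 1.5-fold. Of this list 13 genes were under 4 on both arrays, with Mki67 and Top2a among them. Gadd45g, a stress-response gene, was the only immediate early gene of 20 past 1.5-fold, at -0.64. The 23 oxidative phosphorylation genes lay between -0.15 and 0.04, and the 16 cytosolic ribosomal protein genes between -0.16 and 0.08. The 22 genes of amino acid breakdown and the urea cycle ranged from -0.35 for Nags to 0.46 for Ass1, and the 18 retinoid genes from -0.23 for Rdh10 to 0.25 for Lrat.

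The low-fat pair of arrays gave values for the same genes in other mice. There 61 of 8524 measurable genes were 2-fold or more lower after clodronate, 0.716%, and 19 were higher, 0.223%. Of the 70 genes lower on the high-fat diet 52 were also lower on the low-fat diet, 74.3% of the former and 85.2% of the latter list, and 66 of the 70 were below 0 there. Csf1r, measured on all 4 arrays, differed by -4.35 (log2) on the low-fat diet, beside -4.10 on the high-fat diet. Vsig4, Clec4f and C1qa were under 4 with clodronate on both diets, so their differences are bounds that the PBS levels set. These bounds were -5.91, -5.40 and -5.44 on the low-fat diet, beside -5.66, -5.42 and -5.28 on the high-fat diet. Cd5l, at 5.82 with clodronate on the high-fat diet, was at 3.38 on the low-fat diet, and C1qb, at 6.02, was at 4.04 there. Both levels were thus higher in the high-fat pool. Lpl differed by -1.40 on the low-fat diet beside -2.18. No difference between the diets has a test.

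**Figure D5:**
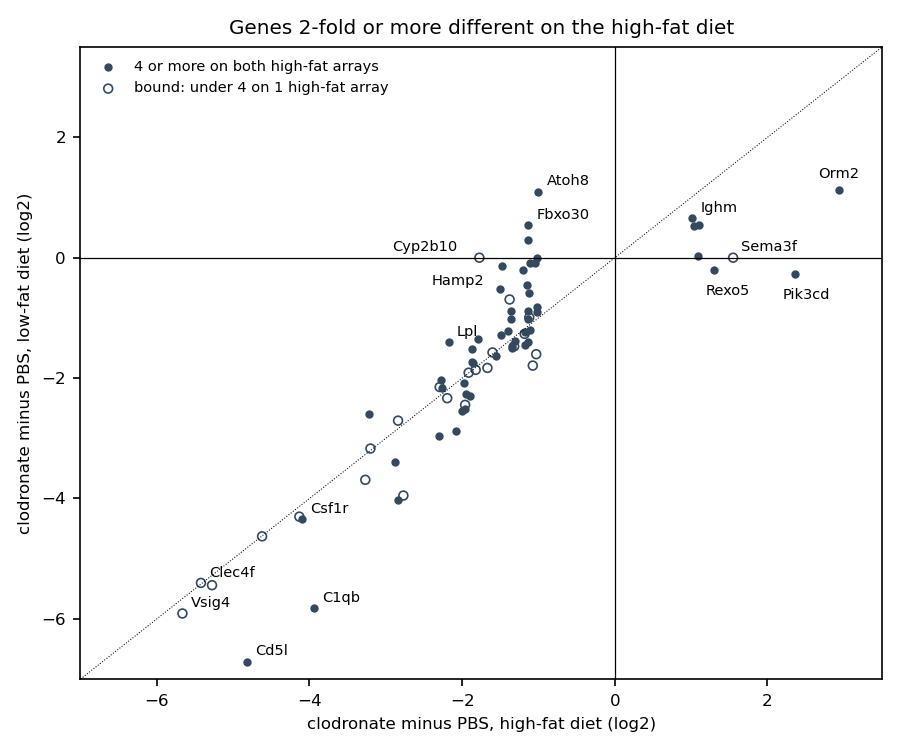
Difference after clodronate on the high-fat diet (horizontal axis, log2) and on the low-fat diet (vertical axis, log2) for the 70 lower and 8 higher genes of the high-fat comparison, 1 point a gene, with the dotted line at equal values. Open points are bounds on the high-fat diet, and bounds on the low-fat diet are not marked. Csf1r lies near the line, as do Vsig4 and Clec4f, which are bounds on both diets. Cd5l, a bound on the low-fat diet, and C1qb lie below it. A group that includes Cyp2b10 and Hamp2 lies past -1 on the horizontal axis and near 0 on the vertical axis.

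The 18 genes that reached 2-fold lower on the high-fat diet alone held 1 gene of the macrophage lists, the scavenger receptor Msr1. Of these 10 were within 1.5-fold on the low-fat diet, Cyp2b10, Flvcr1, Szrd1, Fbxl14, Hamp2, Jam2, Dph5, Alg8, Oxct1 and Fbxo30. Of the 10, Hamp2 alone stayed past 2-fold under every alternative run. With a floor of 5 in place of 4, 8 were short of 2-fold, all but Hamp2 and Szrd1. Flvcr1 and Szrd1 were short of it under both other scalings, and Fbxo30 and Szrd1 with the median over probe sets. Cyp2b10 was at 1.75 and 2.04 in the low-fat pools, too dim to differ, so that on these 4 arrays it was measurable in the high-fat PBS pool alone. Hamp2 was at 11.68 and 11.54 in the low-fat pools, a difference of -0.14, and both high-fat values of 12.71 and 11.23 lie outside that span. Flvcr1, a haem exporter, differed by -0.01 there beside -1.02, and Oxct1, an enzyme of ketone body use, by -0.52 beside -1.50. Most of these genes were dim, between 5.14 and 7.27 with PBS on the high-fat diet except for Hamp2, where the differences of all genes also spread most.

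Higher genes were few, and 1 was past 2-fold on both diets. Of the 8 genes higher on the high-fat diet Orm2 was the only one also 2-fold higher on the low-fat diet, where it was at 7.35 and 8.47. It makes up 12.5% of the former and 5.26% of the latter list, beside 0.223% of all measurable genes higher on the low-fat diet. Of the 8 genes 5 were above 0 on the low-fat diet and 2 below. The remaining 1, Sema3f, was under 4 on both low-fat arrays. Pik3cd was at 4.26 and 3.96 in the low-fat pools, a bound, and Rexo5 at 4.86 and 4.65, small differences below 0 in both cases. Ighm and Igkv8-30 were higher on the low-fat diet as well, by 0.66 and 0.53. Lcn2 went from 4.94 to 7.68 on the low-fat diet and from 6.89 to 7.57 on the high-fat diet, so that the clodronate levels were close and the PBS levels were not. Mt1 was at 7.66 after clodronate on both diets, with 6.09 and 6.78 in the low-fat and high-fat PBS pools. Saa1 differed by 0.81 beside 0.95.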

How the data were processed

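Liver RNA was measured on 4 single-colour Affymetrix arrays, 1 pool a group. The deposited table holds log2 expression values, computed by the authors; the submitters' processing notes name GCRMA 2.24.1. This method models probe background by sequence, normalizes the arrays together and summarises probe sets, so low values are shrunk and differences near the floor are uncertain. Scanner files were not used here. The platform annotation named 35890 probe sets, of which 34958 had 1 symbol and 932 several, and 9211 had none. Entrez identifiers of 34754 matched RefSeq (GRCm38.p6), and 0 symbols changed.

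The probe set whose mean over the 4 arrays was highest stood for its gene. Values under 4 were set to 4 before subtraction. The members and the 49 gene lists, 13 of cell types and 36 of pathways, were chosen with earlier results of these data known. List medians cover all genes on the array. Named were the 20 measured genes and 12 bounds with the greatest difference in each direction, up to 8 genes a list with the greatest differences and those under 4, the 5 genes past 2-fold whose probe sets differed most, up to 10 genes in each direction with the smallest low-fat difference, and Il1b, Ppara and Clec4f; other names were chosen after their values were seen. Samples were grouped by title. No test was possible. Alternatives changed the floor, the scaling, the filter, the threshold and the choice of probe set. The code was tested on simulated data and used Python 3.11.15, numpy 2.4.6, pandas 2.3.3 and matplotlib 3.10.9. The number of arrays, 1 a group, limits the precision.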

Additional observations from a re-analysis of the deposited data

Results flagged for a closer look

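Several genes had differences of opposite sign on the high-fat and the low-fat diet, each from 1 pair of arrays, and these differences between the diets were not tested. Pik3cd, a leukocyte kinase subunit, differed by 2.36 (log2, clodronate minus PBS) on the high-fat and by -0.26 on the low-fat diet, and Rexo5 by 1.30 and -0.21. Atoh8, a factor of the BMP pathway, differed by -1.0 on the high-fat and by 1.10 on the low-fat diet. Cish, Socs2 and Cyp7a1 differed by -0.78, -0.69 and -0.73 on the high-fat diet, beside 1.72, 1.09 and 0.63. Fbxo30 and Dph5 both differed by -1.14 on the high-fat diet, beside 0.55 and 0.29. With the median over its probe sets Fbxo30 differed by -0.65 on the high-fat diet. The low-fat value of Pik3cd is a bound, since its clodronate level of 3.96 was under 4. Dim genes, with mean levels from 4 to 6, spread between -0.63 and 0.38 on the high-fat arrays (5th and 95th percentiles). The low-fat values of Pik3cd, Rexo5 and Dph5 lie within that span, so their sign is uncertain.

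Outside the probe sets with 1 symbol, 1779 measurable probe sets had no symbol or several. Of these 2 were 2-fold or more higher on the high-fat diet, 0.112%, and 12 were lower, 0.675%.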

How the results depend on the processing

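All 70 lower genes kept their direction under every alternative. Other floors, filters and thresholds reuse the same 2 values of a gene and cannot reverse a direction, so only the scaling and the choice of probe set could. Of the 70, 65 stayed past 2-fold with each array centred on its median or with quantile normalization, 64 with the median over a gene's probe sets and 43 with a floor of 5. With each array centred or with quantile normalization, 65 genes were lower and 11 higher. By probe set 86 and 84 were lower under these 2 scalings, and 21 higher under each. With a floor of 3 or no floor, 90 genes were lower and 13 higher, and 130 probe sets lower and 25 higher. With a floor of 5, 43 genes were lower and 4 higher, and 59 probe sets lower and 7 higher. A higher floor shortens each bound and turns measured values under 5 into bounds. Oxct1, for example, was measured at -1.50 with a floor of 4 and was a bound of -0.64 with a floor of 5. Without a filter on dim genes 112 were lower and 17 higher, and 166 probe sets lower and 32 higher. At 1.5-fold 258 genes were lower and 55 higher, and 421 probe sets lower and 100 higher. Of the 8 higher genes 7 kept their direction when the probe set brightest in the high-fat PBS array stood for the gene, and Zfp62 was at -0.24. Of 49 list medians 49 moved by less than 0.205, the pooled SD within a gene, under both other scalings. The treatment of dim genes moved some medians by more, 5 of 49 with a floor of 3 or no floor. With members under 4 on both arrays left out 6 of 47 did so. There the MHC class II median went from 0 to -1.60, that of leukocyte signalling to -0.29 and that of B and plasma cells, from 1 gene, to 1.01. The Kupffer cell median lay between -1.85, with members under 4 on both arrays left out, and -0.73, with a floor of 5. No paired analysis was possible because each group is 1 array. The spread between mice was not measured, and genes under 4, which include most cytokines and leukocyte markers, could not be compared.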
